A study of Homo sapiens with 4 samples.

Results

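RNA of clone #3-1, a derivative of the human colon cancer cell line HCT116 that stably carries an shRNA against the long non-coding RNA N-BLR, was compared with RNA of an HCT116 empty vector control on 2 of the 4 arrays of the series. These are the 2 arrays whose titles name N-BLR shRNA #3-1, replicates 1 and 2, and every non-control probe on them was used. The other 2 arrays carry clone #4-7, a second N-BLR shRNA clone, and every array also received the empty vector RNA. Each array is an Agilent 2-colour array with 41000 different probes, in which Cy5 is labelled as the shRNA clone and Cy3 as the empty vector control, and the dyes were never exchanged. All groups are HCT116 cells that went through vector delivery and selection. The labels speak of lentiviral transduction, while the methods describe transfection of an shRNA plasmid and drug selection. Clone #3-1 is 1 clone, so what the shRNA did and what is peculiar to the clone cannot be told apart, and no time or dose was varied.

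Carcinoma cells can shift between an epithelial state, in which neighbouring cells are held together by E-cadherin, claudins and desmosomes, and a mesenchymal state marked by vimentin and by less cell-to-cell contact. This shift, the epithelial-mesenchymal transition (EMT), is driven by transcription factors of the ZEB, SNAI and TWIST families, which bind E-box sequences in the promoters of epithelial genes. Epithelial identity is in turn kept by factors such as GRHL2, ELF3 and the splicing regulator ESRP1. The study asked how N-BLR bears on motility, EMT and apoptosis in colon cancer cells, and the arrays were made to find genes that differ between the shRNA clones and the control.

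Values are log2 ratios of Cy5 over Cy3 after normalization, with the standard error (SE) of the fit and, as p, the Benjamini-Hochberg adjusted p of limma's moderated test over all 41000 probes. A gene is said to have risen when it was higher in Cy5, the channel labelled as clone #3-1, and to have fallen when it was lower there, at an unadjusted p under 0.001. Every direction rests on the dye assignment in the labels. By these labels E-cadherin fell and vimentin rose in clone #3-1, which is opposite to the direction in which the study describes its clones, and the methods name no dye. Were the channels exchanged, every sign given here would turn, and the same genes would head the opposite list. Among genes well above background in both channels, MAL2 would then be the largest increase and VIM the largest decrease. None of the 41000 probe sequences (0) holds any of 4 N-BLR siRNA target sites, so these arrays do not show the knockdown.

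Both arrays of the clone were of similar quality. Probe spots well above background, as flagged by the scanner software, made up 71.2% and 71.8% in Cy3 and 71.5% and 72.0% in Cy5. Saturation affected 7 and 9 spots. The median SD between both arrays at the same spot was 0.0296 on the log2 scale, below the 0.0555 and 0.0611 found between spots of the same probe on a single array (264 probes printed at least 10 times). The labels call the arrays biological replicates and the methods say only that they were done in duplicate, so the p-values measure the spread between these arrays, which may be technical. The control is the empty vector clone, and the methods do not say whether all arrays received 1 preparation of its RNA. The control's own spread is not estimated apart in the test. The number of arrays limits the precision.

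Of 17531 genes, each represented by its brightest probe, 3709 rose in clone #3-1, which is 21.2% of the genes tested, and 3289 fell, which is 18.8%. Most of these changes were small, with a median size of the log2 ratio of 0.17 over all genes. At least 2-fold changes were seen in 219 genes that rose (1.25%) and in 320 that fell (1.83%). Changes of at least 4-fold were found in 16 genes that rose and 45 that fell. The counts without a fold limit depended on the number of arrays: with 1 array of clone #3-1 left out, between 2173 and 2176 genes rose and between 1998 and 2012 fell. The 2-fold counts then stayed between 224 and 226 and between 319 and 322. In the direct test of the 2 shRNA clones, the ratio was higher in clone #3-1 than in clone #4-7 for 2344 genes (13.4%) and lower for 2528 (14.4%). Where a gene or list is said to have passed in a number of alternatives, these are up to 14 other ways of processing or choosing the arrays, with the same threshold.

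Among genes well above background in both channels, the largest decrease in clone #3-1 was in MAL2, a membrane protein of apical transport in epithelial cells. Its log2 ratio was -4.21 and -4.15 on the arrays of replicates 1 and 2, and its processed signal was 464 and 443 in Cy5 against 9690 and 8784 in Cy3. The fitted value was -4.18 (SE 0.03, n = 2, adjusted p = 3.2e-06). Both Cy5 signals lay far below both Cy3 signals, as they did for every gene named in this paragraph. S100A14, a small calcium-binding protein of epithelia, fell by 3.67 (SE 0.04, adjusted p = 5.1e-06), with Cy5 signals of 1072 and 1026 against Cy3 signals of 14639 and 13329. TMEM125, a transmembrane protein, fell by 3.53. ATP2C2, a calcium and manganese pump of the Golgi, fell by 3.12, with Cy5 signals of only 53.5 and 59.5. TMC4, a member of the transmembrane channel-like family, fell by 2.91.

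The other 10 of the 15 largest decreases lay between -2.78 and -2.50. Those reported here were AGPAT4, an acyltransferase of phospholipid synthesis, BDKRB1, the bradykinin receptor B1, CORO6, a coronin of the actin cytoskeleton, STXBP6, a binding partner of syntaxins, CD33, a sialic acid-binding receptor, CDH1, which encodes E-cadherin, RGS2, a regulator of G protein signalling, TMEM40 and ALDH1A3, an enzyme of retinoic acid synthesis. For AGPAT4 the signals were 1545 and 1542 in Cy5 against 11049 and 10649 in Cy3. Its log2 ratio was -2.78 in clone #3-1 and 0.01 in clone #4-7, a difference of -2.79 (adjusted p = 1.2e-05). STXBP6 was likewise at 0.08 in clone #4-7, and the difference between the clones was -2.74 (adjusted p = 4.9e-05). TMEM40 stood at -2.52 in clone #3-1 and at -0.07 in clone #4-7, a difference of -2.45 (adjusted p = 2.0e-05).

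**Figure D1:**
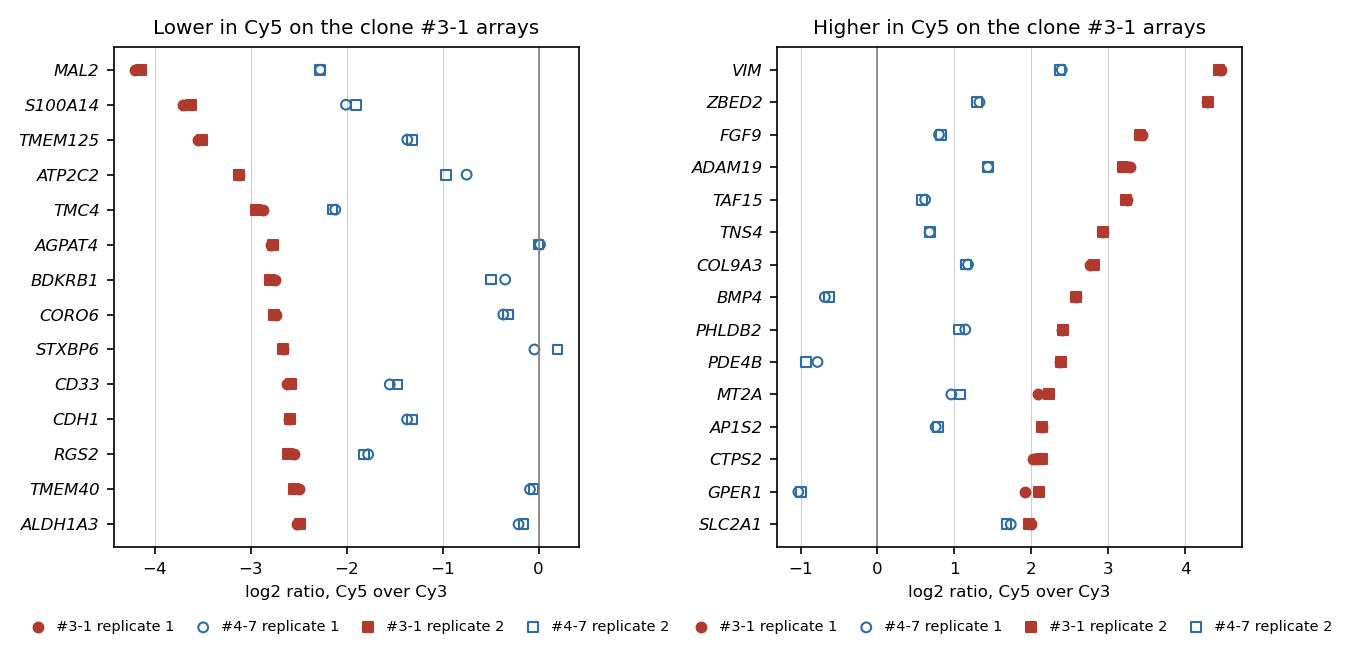
Log2 ratio (Cy5 over Cy3, x axis) of 14 of the 15 genes with the largest decreases (left) and the 15 with the largest increases (right) in clone #3-1, filled symbols, beside the same genes in clone #4-7, open symbols, with a circle for replicate 1 and a square for replicate 2. Replicates of a clone lie close together, and the clone #3-1 values run from -4.18 (MAL2) to 4.45 (VIM) as means of both arrays. Genes were ranked among those well above background in both channels on both arrays of clone #3-1. On all 4 arrays Cy3 is labelled as the empty vector control.

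Among genes that rose and were well above background in both channels, VIM, which encodes the intermediate filament protein vimentin, changed most. Its log2 ratio was 4.46 and 4.44 on the 2 arrays, with signals of 15802 and 15283 in Cy5 against 639 and 626 in Cy3, and the fit gave 4.45 (SE 0.03, n = 2, adjusted p = 3.2e-06). A second VIM probe gave 4.04. In clone #4-7 VIM was at 2.39, and the difference between the clones was 2.06 (adjusted p = 2.2e-05). The probe lies at chr10:17318353-17319262 in build hg17, in the VIM transcript.

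ZBED2, a zinc finger protein, rose by 4.29 (SE 0.03), from 410 and 388 in Cy3 to 9689 and 9090 in Cy5. FGF9, a secreted fibroblast growth factor, rose by 3.43, from 199 and 195 to 3398 and 3069. ADAM19, a membrane metalloprotease, rose by 3.24, and its other, dimmer probe read 1.59. Each of these had both Cy5 signals above both Cy3 signals. TAF15, an RNA-binding protein of the FET family, read 3.24 with its brightest probe, while its other probe read 0.18 and did not pass, so the probes of this gene disagree.

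The remaining large increases were TNS4 (2.93), a focal adhesion protein, COL9A3 (2.79), a chain of collagen IX, BMP4 (2.58), a ligand of the TGF-beta superfamily, PHLDB2 (2.40), a cortical protein of microtubule anchoring, PDE4B (2.37), a cyclic AMP phosphodiesterase, MT2A (2.16), a metallothionein, AP1S2 (2.14), a clathrin adaptor subunit, CTPS2 (2.07), a CTP synthase, GPER1 (2.01), a G protein-coupled oestrogen receptor, and SLC2A1 (1.98), the glucose transporter GLUT1. BMP4, PDE4B and GPER1 stood on opposite sides of 0 in the clones. BMP4 was at 2.57 and 2.58 on the arrays of clone #3-1 and at -0.66 on average in clone #4-7. PDE4B was at 2.37 against -0.86, and GPER1 at 2.01 against -1.01. Other probes of genes with at least 2-fold changes passed the threshold in 212 cases, and 208 of these had the sign of the brightest probe.

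**Figure D2:**
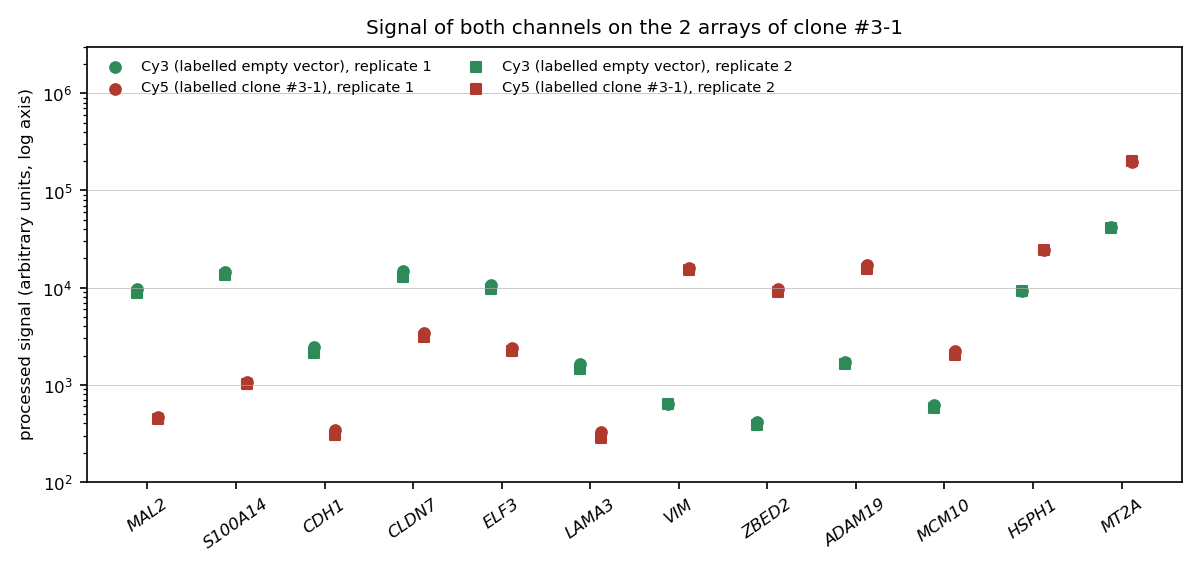
Processed signal (arbitrary units, log axis) of Cy3, labelled empty vector, and Cy5, labelled clone #3-1, for 12 genes named in the text, with a circle for replicate 1 and a square for replicate 2. For MAL2 to LAMA3 both Cy5 points lie below both Cy3 points, and for VIM to MT2A both lie above them. Signals of different genes come from different probes and cannot be compared.

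Some genes were measured in only one channel, and then only a bound on the fold could be given, which is open to dye bias because no dyes were swapped. VSNL1, a neuronal calcium sensor, was at least 19.7-fold higher in Cy5, with signals of 1602 and 1562 where Cy3 was not well above background. CSMD3, a large membrane protein of neural tissue, was at least 6.58-fold higher, CD96, a lymphocyte receptor, at least 3.38-fold, and DCLK1, a microtubule-associated kinase, at least 3.26-fold. In the other direction FXYD3, a regulator of the sodium pump in epithelia, was at least 8.54-fold lower in Cy5, with Cy3 signals of 677 and 662. SPATA22, a meiosis gene, was at least 7.55-fold lower, the zinc finger genes ZNF502 and ZNF550 at least 5.26-fold and 4.78-fold, and the iron exporter SLC40A1 at least 4.20-fold. These bounds are a description, since the genes were chosen for being measured in one channel, and no test is given.

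Epithelial cell adhesion fell as a group. Of 36 genes of adherens junctions, tight junctions, desmosomes and cell polarity, 22 fell (61.1%, against 18.8% of all genes), 2 rose and 12 did not pass, and the median log2 ratio was -0.59 against 0.01 over all genes. At least 2-fold decreases were found in 12 of the 36, and 0 rose as much. Their median was -0.13 in clone #4-7. In the direct test 21 of them were lower in clone #3-1 than in clone #4-7 (against 14.4% of all genes), while 0 were higher (against 13.4%).

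CDH1 encodes E-cadherin, which holds epithelial cells together at adherens junctions. It read -2.61 and -2.59 on the 2 arrays, with signals of 342 and 303 in Cy5 against 2428 and 2126 in Cy3 (fit -2.60, SE 0.03, n = 2, adjusted p = 5.4e-06). Its probe lies at chr16:67426715-67426774 (hg17). In clone #4-7 CDH1 was at -1.34, and the difference between the clones was -1.25 (adjusted p = 6.2e-05).

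The tight junction claudins CLDN7 (-1.95), CLDN4 (-1.90) and CLDN3 (-1.27) fell together, as did the junction scaffolds CGN (-1.30), PATJ (-1.20) and TJP3 (-1.17). CLDN7, for example, had Cy5 signals of 3447 and 3126 against Cy3 signals of 14710 and 12878. CDH3, P-cadherin, was at -1.39, JUP, the plakoglobin shared by adherens junctions and desmosomes, at -1.29, and EPCAM, an adhesion molecule of epithelia, at -1.04. The tight junction protein F11R was at -1.02 and the polarity gene LLGL2 at -1.06. Genes that did not pass included CTNNB1, beta-catenin, at 0.05, TJP1, a scaffold of tight junctions, at 0.16, the desmosomal DSP at -0.04 and DSG2 at -0.18. The 2 genes counted as higher were less secure: DSC2, a desmosomal cadherin, was at 0.23 and passed in 3 of 14 alternatives, and CLDN2, at 0.33, was not well above background in either channel and passed in 8 of 13.

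Promoter sequences of these genes are shown because repressors that act in EMT bind the E-box CACCTG. RefSeq promoters (GRCh38.p14, 250 bases before to 50 after each annotated start) were at hand for 23 of the 36 genes. CDH1 was not among the 23, so the promoter of E-cadherin was not searched. The letters CACCTG or the reverse complement CAGGTG were found in 13 of the 23 (56.5%), against 24.1% of all 27305 genes with a promoter. Counted by window, since a gene can have several starts, the shares were 40.0% of 35 and 20.6% of 35116. Within the list the motif did not separate the genes: it was found in 6 of 10 that fell and in 7 of 13 others. A match is a description of letters and not a binding site. Each stretch below runs from the first to the last match before the start, with a short flank on each side that ends at the start. It is written 5′ to 3′ on the strand of the gene, with the matches in capitals. Shown are the 4 genes with the largest decreases among the searched genes that hold a match before the start.
CLDN7, chr17:7262479-7262667, minus strand: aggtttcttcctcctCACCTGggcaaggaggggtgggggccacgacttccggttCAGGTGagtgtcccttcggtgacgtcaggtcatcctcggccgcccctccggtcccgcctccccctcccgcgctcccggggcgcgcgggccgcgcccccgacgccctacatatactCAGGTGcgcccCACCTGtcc
JUP, chr17:41785999-41786045, minus strand: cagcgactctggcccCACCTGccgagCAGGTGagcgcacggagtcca
PATJ, chr1:61742294-61742470, plus strand: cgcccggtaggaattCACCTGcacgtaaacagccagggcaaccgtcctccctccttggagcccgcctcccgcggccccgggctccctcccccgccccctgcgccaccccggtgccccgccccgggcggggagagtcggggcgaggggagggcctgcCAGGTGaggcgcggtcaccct
TJP3, chr19:3721715-3721736, plus strand: gaggaggaagaggggCAGGTGc
CLDN7 held 4 matches before this start and JUP and PATJ held 2 each.

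Epithelial membrane and secretory genes fell further. Of 35 such genes 23 fell (65.7%, against 18.8% of all genes), 15 of them at least 2-fold (against 1.83% of all genes), and 3 rose, and the median was -0.76, against -0.33 in clone #4-7. Beside MAL2, S100A14, TMEM125, ATP2C2 and TMC4 these included AP1M2 (-2.19), the epithelial clathrin adaptor subunit, RAB25 (-2.10), a small GTPase of apical recycling, the membrane serine proteases PRSS8 (-2.01), TMPRSS4 (-1.96) and ST14 (-1.33), and the surface glycoprotein CD24 (-1.35). AP1M2 had Cy5 signals of 1054 and 1032 against Cy3 signals of 4959 and 4838, with no overlap.

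Epithelial transcription and splicing factors were divided. Of 23, 8 fell (34.8%, against 18.8% of all genes) and 4 rose (17.4%, against 21.2%), and 4 fell at least 2-fold. ELF3, an ETS factor of epithelia, fell by 2.04, with signals of 2375 and 2228 in Cy5 against 10592 and 9677 in Cy3. GRHL2, a Grainyhead factor that maintains epithelial genes, was at least 3.94-fold lower in Cy5, where it was not well above background. ESRP1, the epithelial splicing regulator, fell by 1.39 and OVOL1, a zinc finger factor, by 1.06. FOXA1, a forkhead factor of gut epithelium, rose by 0.97, GATA6 by 0.50 and OVOL2 by 0.28, the last in 10 of 14 alternatives. ESRP2 was at -0.02 and the intestinal factor CDX2 at -0.06, and neither passed.

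Keratins, the intermediate filaments of epithelia, did not move as a group. Of 15 genes 4 fell (26.7%, near the 18.8% of all genes), 1 rose and 10 did not pass. KRT15 was at -1.84 and -1.80 on the arrays of clone #3-1 and at 0.22 in clone #4-7, a difference of -2.04 (adjusted p = 2.6e-05). KRT13 fell by 0.98, KRT19 by 0.80 (past the threshold in 11 of 14 alternatives) and KRT8 by 0.69, while KRT18, the partner of KRT8 in simple epithelia, was at -0.10 and did not pass. KRT80 rose by 0.72.

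Mesenchymal genes did not shift as a group, but some rose strongly. Of 35 genes 10 rose, 7 fell and 18 did not pass, with a median of 0.02. Without a fold limit, the shares higher (28.6%) and lower (20.0%) were near the 21.2% and 18.8% of all genes. Of the 35, 11 were not well above background in either channel on both arrays, so a change in them could be missed. At least 2-fold increases were found in 5 of the 35, against 1.25% of all genes, and 0 fell as much. The 5 were VIM, CCN2 (1.11), a matricellular protein, FOXC1 (1.09), a forkhead factor, NT5E (1.05), the ecto-nucleotidase CD73, and SPARC, a matrix glycoprotein at least 2.18-fold higher in Cy5 and not well above background in Cy3. FOXC1 had Cy5 signals of 62218 and 53557 against 31155 and 27272 in Cy3, and CCN2 had 144 and 141 against 28.4 and 25.0. Both were on the other side of 0 in clone #4-7, at -1.90 and -2.38. TAGLN (-0.75), an actin-binding protein of smooth muscle, S100A4 (-0.64), FN1 (-0.53), which encodes fibronectin, and ACTA2 (-0.34) fell. CDH2, N-cadherin, was not well above background on either array.

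Few EMT transcription factors passed the threshold, but part of the list could not be measured. Of 14 genes 3 rose (21.4%, against 21.2% of all genes) and 1 fell, and 0 reached 2-fold with the main processing. Of the 14, 6 were not well above background in either channel on both arrays, so a change in them could be missed. The offset of the main processing also makes ratios of dim probes smaller. ZEB1, a repressor of E-cadherin, was at 0.60 and 0.54 on the 2 arrays, with Cy5 signals of 53.8 and 57.8 and Cy3 not well above background, so that it was at least 1.52-fold higher in Cy5. Its log2 ratio ran from 0.54 to 2.11 over the alternatives and passed the threshold in 9 of 14. TCF3, an E protein, rose by 0.55. SOX9 (0.20) and SNAI1 (-0.32) passed on opposite sides of 0, but only in 3 and 10 of the 14 alternatives. SNAI2 was at 0.28 and TWIST1 at -0.26, neither of which passed, and ZEB2 was not well above background in either channel.

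Of 29 collagens and laminins 12 fell (41.4%, against 18.8% of all genes) and 6 rose (20.7%, against 21.2%). Among chains of laminin-332, the basement membrane laminin of epithelia, LAMA3 fell by 2.14 and LAMB3 by 1.05. LAMA3 had signals of 327 and 285 in Cy5 against 1639 and 1463 in Cy3. LAMB3 was at -0.05 in clone #4-7, and the difference between the clones was -1.01 (adjusted p = 8.6e-05). LAMB1, a chain of other laminins, rose by 1.08, and the collagen chains COL9A3 (2.79) and COL13A1 (1.82) rose as well. Among 19 integrins 5 rose and 4 fell (26.3% and 21.1%, near the shares of all genes), with 0 at least 2-fold. ITGB5 (0.77) and ITGB4 (0.75) rose and ITGA3 (-0.70) fell.

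Matrix proteases and their inhibitors were likewise mixed, with 10 of 32 lower (31.2%, against 18.8% of all genes) and 5 higher (15.6%, against 21.2%). MMP7, matrilysin, was at -1.86 and -1.81, with Cy5 signals of 90.9 and 89.7 against Cy3 signals of 490 and 467, and at 0.19 in clone #4-7. The urokinase gene PLAU fell by 1.16, the metalloprotease inhibitor TIMP2 by 0.99 and the serpin SERPINB5, maspin, by 0.94. ADAM19 was the only member that rose at least 2-fold. MMP2, MMP3, MMP10 and MMP13 were not well above background.

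Genes of DNA replication and of mitosis rose together. Of 37 replication genes 34 rose (91.9%, against 21.2% of all genes), 0 fell and 8 reached 2-fold, with a median of 0.78. The median in clone #4-7 was 0.29, and 27 of the 37 were higher in clone #3-1 than in clone #4-7 (against 13.4% of all genes). MCM10, a replication initiation factor, read 1.70 and 1.73, with signals of 2204 and 2040 in Cy5 against 623 and 575 in Cy3. GINS2, a subunit of the replicative helicase complex, rose by 1.35, TYMS, thymidylate synthase, by 1.22, UHRF1, a factor of maintenance methylation, by 1.19 and the polymerase POLA1 by 1.06. The helicase subunits MCM2 to MCM7 rose by 0.69 (MCM5) to 0.98 (MCM3), and PCNA, the sliding clamp, by 0.90. GINS1, GINS4 and POLD1 did not pass.

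Of 37 mitosis genes 33 rose (89.2%, against 21.2% of all genes) and 1 fell, and the median was 0.54, against 0.42 in clone #4-7. Only HMMR, a spindle protein and hyaluronan receptor, reached 2-fold, at 1.30. CCNB1, cyclin B1, rose by 0.87, the transcription factor FOXM1 by 0.84 and MKI67, the proliferation antigen Ki-67, by 0.53, the last being at -0.53 in clone #4-7 (difference 1.05, adjusted p = 8.9e-05). CDC25B, a phosphatase that activates cyclin-dependent kinases, fell by 0.40.

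Cholesterol synthesis showed the most uniform decrease among the lists. All 25 genes of the pathway and its regulation on the array fell (against 18.8% of all genes), 20 of them in every alternative, and 6 at least 2-fold, with values from -1.80 to -0.22 and a median of -0.65. INSIG1, a sterol sensor of the endoplasmic reticulum, was at -1.78 and -1.83, with signals of 4998 and 4680 in Cy5 against 17472 and 16749 in Cy3. HMGCS1, an early enzyme of the mevalonate pathway, fell by 1.65, MVK, mevalonate kinase, by 1.36, MSMO1 by 1.19, SQLE, squalene epoxidase, by 1.04 and IDI1 by 1.02. SREBF2, a transcription factor that controls the pathway, was at -0.85. The median of the same genes in clone #4-7 was 0.28. In the direct test 23 of the 25 were lower in clone #3-1 than in clone #4-7 (against 14.4% of all genes). For INSIG1 the difference was -2.51 (adjusted p = 1.9e-05).

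Fatty acid synthesis fell less uniformly, with 9 of 18 genes lower (against 18.8% of all genes) and 3 higher (16.7%). ACSL1, an acyl-CoA synthetase, fell by 1.40, FASN, fatty acid synthase, by 1.14 and the desaturase SCD by 1.04. FASN had Cy5 signals of 2118 and 2044 against Cy3 signals of 4676 and 4472. ACSL5 rose by 0.67.

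**Figure D3:**
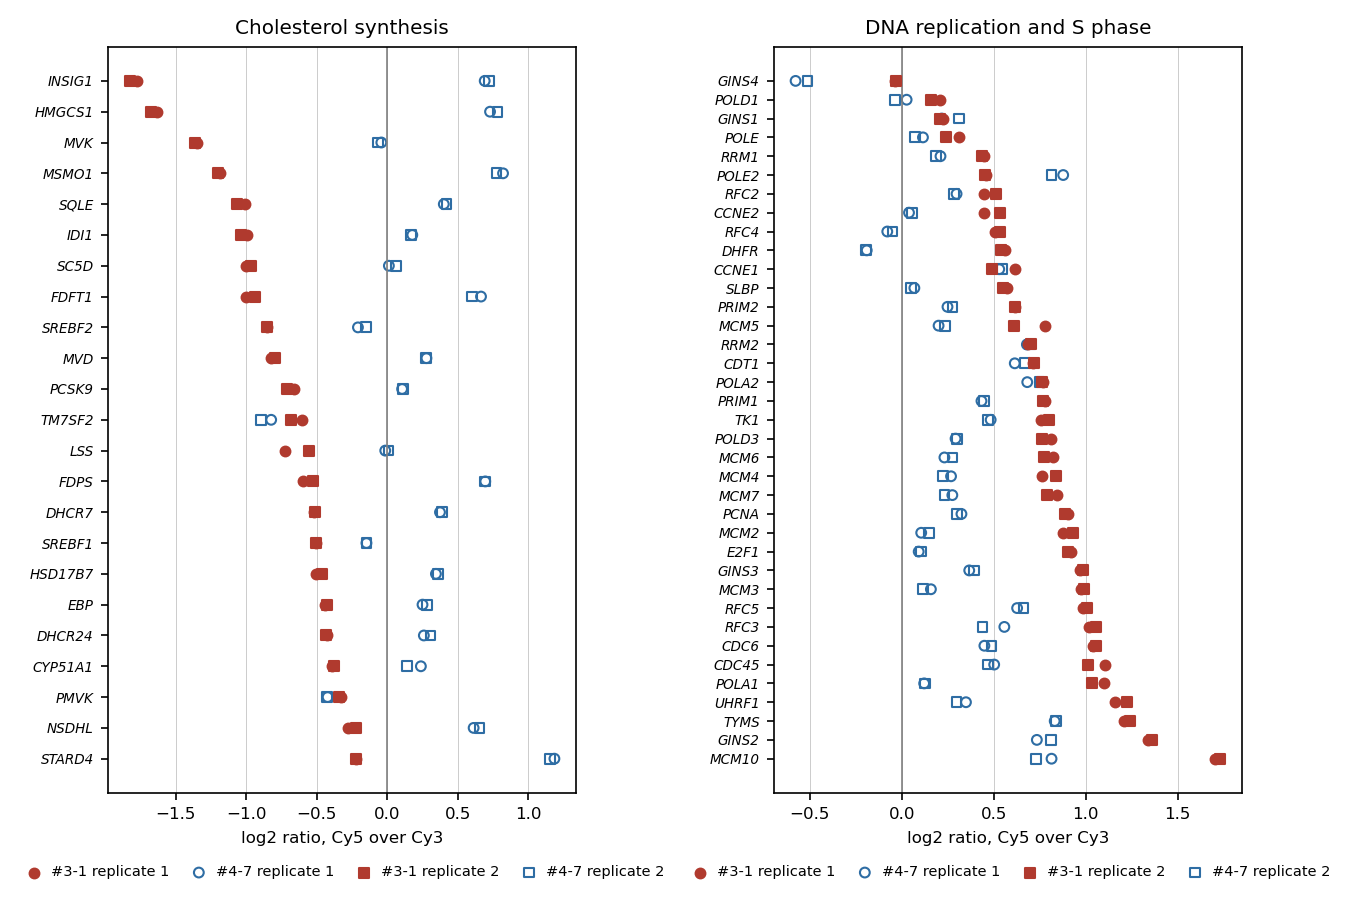
Log2 ratio (Cy5 over Cy3, x axis) of 23 of the 25 genes of cholesterol synthesis (left) and 37 genes of DNA replication (right) on each array, with filled symbols for clone #3-1 and open symbols for clone #4-7, and circles and squares for replicates 1 and 2. In clone #3-1 all cholesterol genes drawn lie left of 0 (median -0.65) and 36 of the 37 replication genes lie right of it (median 0.78), while the medians in clone #4-7 are 0.28 and 0.29, with cholesterol medians taken over all 25 genes.

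Of 36 heat shock proteins and co-chaperones 24 rose (66.7%, against 21.2% of all genes), 5 at least 2-fold (against 1.25% of all genes), and 3 fell (8.33%, against 18.8%), with a median of 0.41. HSPH1, a nucleotide exchange factor of HSP70, was at 1.40 and 1.36 on the 2 arrays, with Cy5 signals of 24361 and 24392 against Cy3 signals of 9287 and 9223. HSPA1A, the inducible HSP70, rose by 1.30, the inducible HSP90AA1 by 1.16, the constitutive HSPA8 by 1.14 and the mitochondrial co-chaperonin HSPE1 by 1.03. HSPA1A has a near-identical neighbour, HSPA1B, and a probe may read both. HSPH1 was at 0.12 in clone #4-7, a difference of 1.26 (adjusted p = 6.3e-05). The median of the list was 0.29 in clone #4-7. In the direct test 8 of the 36 genes were higher and 8 lower in clone #3-1 than in clone #4-7 (against 13.4% and 14.4% of all genes). HSP90AB1, the constitutive HSP90, was at -0.03 and did not pass, and the factor HSF1 (-0.27) passed in only 4 of 14 alternatives.

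Heat shock promoters are shown because their elements, built from GAA and TTC units, are a textbook feature of the family. The letters GAANNTTC, which read the same on both strands, were found in 14 of 32 promoters of the list (43.8%) against 8.21% of all, or in 33.3% of 45 windows against 6.77%. They were present for 10 of 22 members that rose and for 4 of 10 others. The 4 members that rose most among those with a match before the start are given in the same form.
HSPA1A, chr6:31815422-31815459, plus strand: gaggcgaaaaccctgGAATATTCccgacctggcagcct
HSP90AA1, chr14:102087105-102087142, minus strand: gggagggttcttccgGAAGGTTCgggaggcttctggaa
HSPA8, chr11:123062164-123062381, minus strand: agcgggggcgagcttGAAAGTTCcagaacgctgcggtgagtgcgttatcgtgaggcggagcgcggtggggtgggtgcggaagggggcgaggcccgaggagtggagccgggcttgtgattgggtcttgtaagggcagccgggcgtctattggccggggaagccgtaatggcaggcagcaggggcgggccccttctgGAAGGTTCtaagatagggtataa
CHORDC1, chr11:90223077-90223269, minus strand: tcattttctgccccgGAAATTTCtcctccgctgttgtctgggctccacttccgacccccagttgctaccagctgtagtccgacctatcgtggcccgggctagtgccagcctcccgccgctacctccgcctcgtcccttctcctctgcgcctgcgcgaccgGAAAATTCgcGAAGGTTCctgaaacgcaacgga
CHORDC1, an HSP90 co-chaperone that rose by 0.97, held 3 matches before its start.

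Genes of the ATF4 and unfolded protein responses rose in 18 of 34 cases (52.9%, against 21.2% of all genes) and fell in 4 (11.8%, against 18.8%). SLC7A11, the cystine transporter, was at 1.73 and 1.82, with Cy5 signals of 1838 and 1947 against Cy3 signals of 471 and 484. SDF2L1, an endoplasmic reticulum protein, rose by 1.34 and DDIT3, the factor CHOP, by 1.20. DDIT4, an inhibitor of mTORC1, fell by 1.17. ATF4 itself was at 0.24 and passed in 6 of 14 alternatives, whereas ASNS (0.06) and TRIB3 (-0.07), well-known targets, did not pass. The median was 0.28, against -0.02 in clone #4-7.

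Metallothioneins, small zinc-binding and copper-binding proteins, had the highest median of the lists, at 1.50. The list of 13 genes also holds MTF1 and SLC30A1, which are not metallothioneins. Of the 13, 9 rose (69.2%, against 21.2% of all genes), 8 at least 2-fold, and 0 fell. MT2A, the main ubiquitous metallothionein, rose from 41933 and 40862 in Cy3 to 195056 and 202768 in Cy5 (2.09 and 2.23 on the log2 scale). MT1G, MT1E, MT1B, MT1X, MT1M, MT1H and MT1A rose by 1.49 to 1.69. These genes are near-identical in sequence, so that probes may share targets and their number is uncertain. MT1F (-0.09) did not pass, nor did MTF1 (-0.08), the factor that activates them, or the zinc exporter SLC30A1 (-0.16). The median in clone #4-7 was 0.72.

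Hypoxia-induced and glycolytic genes fell in 21 of 37 cases (56.8%, against 18.8% of all genes) and rose in 4 (10.8%, against 21.2%). CA9, a carbonic anhydrase induced by hypoxia, was at -1.54 and -1.52, with Cy5 signals of 105 and 103 against Cy3 signals of 438 and 412. The aldolase ALDOC fell by 1.15, the stress gene NDRG1 by 0.94 and VEGFA, the angiogenic growth factor, by 0.45. Of the 4 that rose, SLC2A1 alone reached 2-fold, at 1.98 in clone #3-1 and 1.70 in clone #4-7, and ADM, adrenomedullin, rose by 0.62. The list's median was -0.24 in clone #3-1 and 0.62 in clone #4-7. In the direct test 27 of the 37 genes were lower in clone #3-1 (against 14.4% of all genes).

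Among 27 genes of PRPP, purine and pyrimidine synthesis 11 rose (40.7%, against 21.2% of all genes) and 7 fell (25.9%, against 18.8%). Of these, 6 of the 11 and 4 of the 7 passed in every alternative. The CTP synthases CTPS2 (2.07) and CTPS1 (1.75) rose, and both were also higher in Cy5 in clone #4-7, at 2.10 and 1.14. PRPS1, phosphoribosyl pyrophosphate synthetase, fell by 1.96, with Cy5 signals of 2745 and 2433 against Cy3 signals of 10536 and 9647. PRPS1L1, a close relative of PRPS1 whose probe may read the same transcript, fell by 1.95. In clone #4-7 these were at -2.47 and -1.88.

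Apoptosis genes changed in both directions. Of 8 inhibitors of apoptosis 1 rose (12.5%, against 21.2% of all genes) and 2 fell (25.0%, against 18.8%). BIRC5, survivin, rose by 0.84, and BIRC3 and BIRC2, the cellular IAPs, fell by 1.34 and 0.57. BIRC3 was at 1.01 in clone #4-7, and the difference between the clones was -2.34 (adjusted p = 2.6e-05). XIAP was at 0.12 and 0.09 on the 2 arrays, with Cy5 signals of 934 and 957 against 825 and 865, and did not pass (adjusted p = 0.049). Of 15 caspases and related genes 4 fell, namely CASP10 (-0.83), PARP1 (-0.46), CASP8 (-0.29) and CASP6 (-0.25), and 3 rose (26.7% and 20.0%, against 18.8% and 21.2% of all genes). PARP1 passed in every alternative, CASP10 in 11, CASP8 in 9 and CASP6 in 5 of 14, and the other CASP8 probes, at -0.05 and -0.04, did not pass. CASP9 (-0.14) did not pass. In the BCL2 family 8 of 22 genes fell (36.4%, against 18.8% of all genes) and 4 rose (18.2%, against 21.2%). They were led by BIK at -0.91 and BAK1 at 0.41, both of which promote cell death, and BAK1 passed in 9 of 14 alternatives.

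Genes of the Wnt pathway and its targets were divided. Of 36 genes 13 fell (36.1%, against 18.8% of all genes) and 9 rose (25.0%, against 21.2%). AXIN2, a negative feedback target of beta-catenin, was at 1.85 and 1.91, rising from 75.7 and 62.6 in Cy3 to 510 and 481 in Cy5, and the targets SP5 and RNF43 rose by 1.82 and 1.80. CD44, a hyaluronan receptor, fell by 1.24, FRZB, a secreted Wnt inhibitor, by 1.21 and MYC by 0.61. Of 32 genes of the TGF-beta pathway and its targets 9 rose, led by BMP4, and 6 fell, led by SMAD3 at -1.09. These shares (28.1% and 18.8%) were near those of all genes. The ligand TGFB1 rose by 0.67.

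Of 42 immediate early genes, which respond to growth signals within minutes, 17 rose (40.5%, against 21.2% of all genes) and 8 fell, with a median of 0.10. HES1, a repressor induced by Notch signalling, rose by 1.60, the nuclear receptor NR4A2 by 1.45 and the ERK phosphatase DUSP6 by 1.16, whereas DUSP5 fell by 1.48. The median in clone #4-7 was -1.32. In the direct test 33 of the 42 genes were higher in clone #3-1 than in clone #4-7 (against 13.4% of all genes).

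Interferon-induced genes fell in 16 of 43 cases (37.2%, against 18.8% of all genes) and rose in 4 (9.30%, against 21.2%). The decreases were led by the antiviral genes OASL (-1.45) and ISG20 (-1.14), and the factor IRF7 rose by 0.59. HLA class I genes and their presentation machinery fell in 8 of 19 cases (42.1%, against 18.8% of all genes), among them HLA-B (-0.65) and B2M (-0.54). They rose in 3 (15.8%, against 21.2%), led by CANX at 0.58. HLA genes share sequence and vary between people, so that probe signals of single genes are uncertain. Among 44 chemokines, cytokines and receptors 9 rose (20.5%, against 21.2% of all genes) and 6 fell (13.6%, against 18.8%). IL18, a cytokine of epithelia, fell by 2.12, and the chemokine CXCL1 and the receptor CXCR4 rose by 1.80 and 1.20. Of the 44, 17 were not well above background in either channel on any array of the clone. S100 genes fell in 6 of 18 cases (33.3%, against 18.8% of all genes) and rose in 1, S100A10 (0.60). Cytosolic ribosomal protein genes changed by less than 2-fold throughout, with a median of -0.16. Of 75, 27 were lower (36.0%, against 18.8% of all genes) and 8 higher (10.7%, against 21.2%). Only 5 of the 27 and 0 of the 8 passed in every alternative. Under normalization without the between-array quantile step the ribosomal median was 0.11, so its sign is not settled.

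Markers of the labelled cell type and of other cells were read as a check. Of 16 colon epithelial markers 10 were well above background, among them KRT8, KRT18, KRT19 and EPCAM, and CDX1, VIL1, CEACAM5, CDH17, LGR5 and ASCL2 were not. The summed signal of the 16 was 319637 and 321117 in Cy5 and 462883 and 447442 in Cy3, a sum in which bright probes weigh most. Of the 16, 3 fell, 1 rose and 12 did not pass, with a median log2 ratio of -0.04. Fibroblast markers summed to 7385 and 6667 in Cy5 and 6903 and 6378 in Cy3, with COL1A2 and COL3A1 not well above background. Leukocyte markers summed to 4847 and 4608 in Cy5 against 9661 and 8987 in Cy3. Of these 12, CD33 (-2.60), CSF1R (-2.30) and CD68 (-0.73) fell, whereas PTPRC, the common leukocyte antigen, was not well above background. Among 14 erythroid markers the globin genes HBA1 (1.17) and HBA2 (1.32), which share sequence, rose, HBE1 (-1.45) and HBG1 (-0.69, past the threshold in 10 of 14 alternatives) fell, and HBB was not well above background. HBE1 was at 4.34 in clone #4-7. The part of other cell types in the results was not tested.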

How the data were processed

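Agilent 2-colour arrays (44K design) were read with Feature Extraction (version 9.5.3.1 in the file headers, 8.5.1.1 in the submitters' processing notes). The authors deposited the mean and background intensity of each spot in both channels, not normalized, with processed intensities corrected for background and dye and a log10 ratio of Cy5 over Cy3. A second table that the authors deposited holds the log10 ratio of each array, within 0.005 of the former. Each array has 45015 spots, of which 1639 are controls. Outlier spots (87 and 120 on the arrays of clone #3-1) were left out, and 13 probes lack a value on 1 of these arrays, which limma fitted from the other.

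In R 4.3.3 with limma 3.58.1, intensities were corrected with normexp (offset 50) and normalized by loess within each array and by quantiles across arrays, with replicate spots averaged. A model with a term per clone was fitted over all 4 arrays, so both clones share the estimate of the spread. Clone #3-1 was tested against 0 and against clone #4-7, at the p of 0.001 that the methods name. The offset of 50 makes ratios of dim probes smaller than those of their signals. The code was tested on simulated data. A symbol was matched to 26834 probes (17531 genes), through RefSeq accessions for most. Members and gene lists were chosen with earlier results of these data known, and lists are described by counts, with no test. The genes named are the study's own, the 15 largest changes per direction above background, the 5 largest bounds per direction, the leading members of each list and the 5 largest differences from clone #4-7 per direction, of which not all are printed. A few genes and 1 gene list are not reported here. Other genes were added as examples of list members that did not pass, after their values were seen. Where a channel was dim, the bound on the fold divides the bright channel by the dim probe's signal or by the array's lowest signal above background, whichever is larger.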

Additional observations from a re-analysis of the deposited data

Results flagged for a closer look

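Genes chosen for clone #3-1 by the rule on named genes, well above background in both channels on all 4 arrays, that passed the threshold on opposite sides of 0 in the 2 shRNA clones, and whose difference was at least 4-fold and passed its own test in the same limma fit, are listed with the difference of the log2 ratios, clone #3-1 minus clone #4-7. Immediate early and related genes made up the highest group, with FOSB at 5.62, HES1 at 5.06, FOS at 4.72, NR4A2 at 4.45, CCN1 at 4.39, CCN2 at 3.50 and DUSP6 at 2.08. FOS was at only 0.26 in clone #3-1 and passed there in 4 of 14 alternatives, and FOSB at 0.50 in 11 of 14, so the opposite sides of 0 were not secure for FOS. HBG1 and LAMA4, named next, passed in clone #3-1 in 10 and 13 of 14 alternatives. Signalling genes that were higher in clone #3-1 were BMP4 (3.23), PDE4B (3.23), GPER1 (3.02), FOXC1 (2.99), AXIN2 (2.49) and CXCR4 (2.23). The globin genes HBE1 (-5.80) and HBG1 (-4.16) were lower in clone #3-1. So were the laminin chain LAMA4 (-3.18), the sterol genes INSIG1 (-2.51) and HMGCS1 (-2.41), the hypoxia-related ALDOC (-2.36) and NDRG1 (-2.17), and BIRC3 (-2.34), FRZB (-2.30) and KRT15 (-2.04). Both clones were set against RNA of the empty vector control. Each clone is 1 clone, so the clone, the shRNA sequence it carries and its history cannot be told apart here.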

How the results depend on the processing

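Alternatives changed the number of genes past the threshold. Of the 211 named genes past the threshold, many of them chosen for large changes, 0 changed sign under any alternative run. From 0 to 33 of them no longer passed the threshold, the most with plain background subtraction. The medians of some lists with small changes did change sign. Against 3709 genes higher and 3289 lower in Cy5, normexp with offset 0 gave 2218 and 2002, plain background subtraction 1842 and 1672, and the software's processed signals 2337 and 2053. With a call at an adjusted p of 0.05 the counts were 5734 and 5011. Against 219 and 320 genes at least 2-fold higher and lower, processed signals gave 383 and 500, plain subtraction gave 331 higher and the deposited log10 ratios gave 343 higher. For the difference between the clones (2344 and 2528), offset 0 gave 1066 and 1202, plain subtraction 860 and 941, processed signals 1205 and 1253, the deposited ratios 1663 lower, a trended prior 3913 and 4067, and the adjusted threshold 4181 and 4355. Leaving out 1 array at a time, of either clone, gave 2173 to 3056 genes higher, 1998 to 2721 lower, 219 to 226 and 319 to 322 at least 2-fold, and 1245 to 1372 and 1386 to 1524 for the difference. The lone array is then assumed to vary like the other clone's. For the remaining settings the cause was not tested.

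The replicate numbers do not pair the samples (correlation of deviations -0.01), and with them as a replicate block 3147 genes were higher and 2789 lower, 219 and 321 at least 2-fold, and 1769 and 1997 for the difference. The medians of small-change lists were less stable: that of EMT transcription factors was -0.01 without clone #3-1 replicate 1, keratins -0.06 and mesenchymal markers -0.06 with processed signals. Probes near background limit all values below the lowest signal above it, and 3411 genes were not well above background in either channel on both arrays.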
